A study of Oryza sativa with 6 samples.

Results

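The genes described here are 5 rice loci of ethylene synthesis and signalling. They were chosen by locus name, 1 each for an S-adenosylmethionine (SAM) synthetase, an ACC synthase, an ACC oxidase, a receptor and an EBF protein: SAMS1 (LOC_Os05g04510), OsACS6 (LOC_Os06g03990), OsACO5 (LOC_Os05g05680), OsERS2 (LOC_Os05g06320) and OsEBF2 (LOC_Os02g10700). They account for 6 of the 63985 entries in the deposited expression tables, of which 58337 name a locus of the Rice Genome Annotation Project (RGAP), because SAMS1 is named by 2 entries. All 5 loci reached 1 FPKM (mapped fragments scaled to transcript length and to the size of the library) in at least 1 group.

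The data are RNA-Seq values of roots from 4-week-old plants of the japonica rice cultivar Chilbo, grown in soil in pots. The groups are plants left without irrigation for 2 d, plants left without irrigation for 3 d (water deficiency, WD) and control plants of the same growth stage that stayed well watered. Each group had 2 libraries, which the authors pooled into 1 FPKM value per entry. No spread between libraries can therefore be given. The authors' own tests were not used, and every ratio below is a description of 3 pooled values with no test.

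Ethylene is a gaseous plant hormone made from methionine. SAM synthetase converts methionine to SAM, ACC synthase converts SAM to 1-aminocyclopropane-1-carboxylic acid (ACC), and ACC oxidase converts ACC to ethylene. The receptors are active without the hormone and then hold the pathway off, and at the far end the F-box proteins of the EBF type mark the EIN3/EIL transcription factors for breakdown, so both classes act against the response. In rice, ethylene is known for its effects on root elongation and for the responses of submerged and flooded plants.

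Of the 5 loci, SAMS1, OsACO5, OsERS2 and OsEBF2 had lower values in WD roots than in control roots at both times, and OsACS6 had higher values. At 2 d, 3 of 5 loci were past a log2 ratio of -1 (2-fold lower) and 0 were past 1. Among the 22412 entries with at least 1 FPKM in 1 of those groups and above 0 in both, 24.6% were past the limit downward and 15.0% upward. At 3 d, 4 of 5 loci were past the limit downward and 0 upward, against 28.3% and 20.1% of 22312 entries. These shares leave out entries listed at 0 in 1 group and at least 1 FPKM in the other. Those at 0 in WD roots were 352 at 2 d and 658 at 3 d, and those at 0 in control roots were 178 and 200. The median log2 ratio of the 5 loci was -1.42 at 2 d and -1.61 at 3 d, while the medians over all entries compared were -0.02 and -0.01. The loci were picked with results of these data known, so these counts are no independent evidence of a direction. Both comparisons also use the same control libraries.

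**Figure D1:**
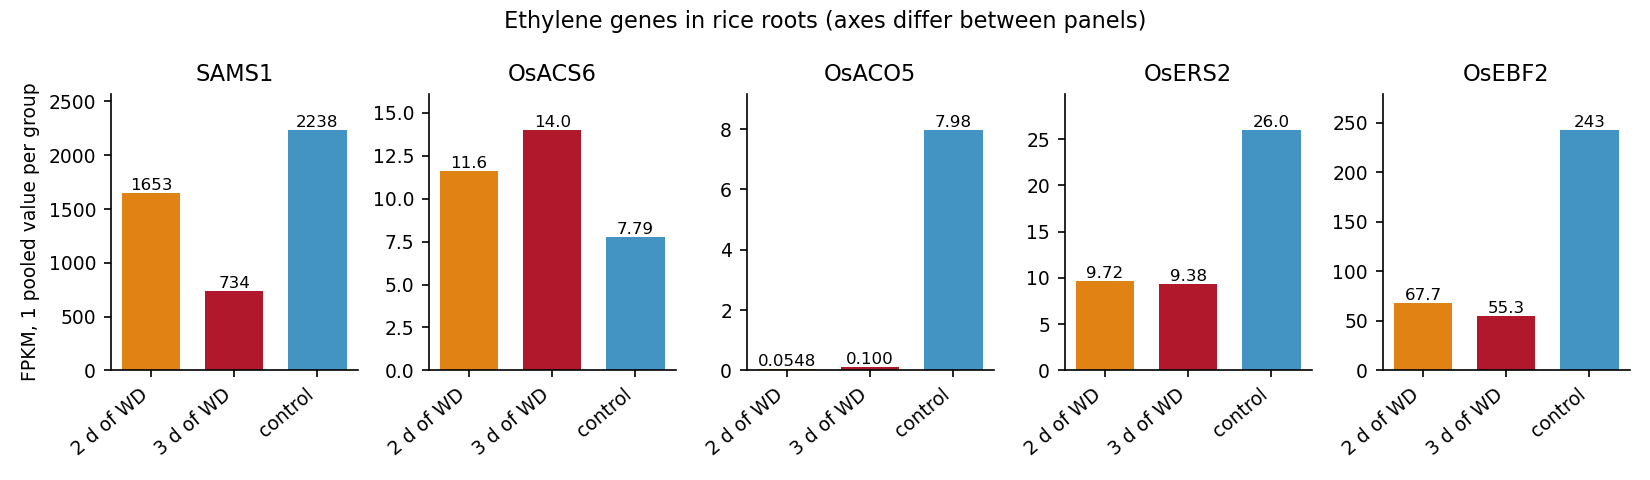
FPKM of the 5 ethylene loci (vertical axes, linear from 0 and different in each panel) after 2 d of WD, after 3 d of WD and in control roots, each bar being 1 value pooled over 2 libraries, so that no error bar can be drawn. SAMS1 steps down to 734 FPKM at 3 d, OsACO5 is close to the baseline at both times, and OsACS6 alone stands above its control bar.

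SAMS1, annotated as a SAM synthetase, supplies SAM to ethylene synthesis and also to methylation reactions and polyamine synthesis. Its main entry spans chromosome 5 from 2089032 to 2092342 on the IRGSP 1.0 genome. The entry had 1653 FPKM at 2 d and 734 FPKM at 3 d, against 2238 FPKM in control roots. It ranked among the most abundant transcripts of the data: 18 of 19761 entries with at least 1 FPKM were higher at 2 d and 56 of 19092 at 3 d, against 11 of 21244 in control roots. The log2 ratio to control was -0.44 at 2 d, within the limit, and -1.61 at 3 d, a 3.05-fold lower level. In these pooled values, only 27.2% of the log2 difference of SAMS1 at 3 d was present at 2 d, a smaller share than for the other loci. Directly between the times, its 3 d value was 2.25-fold lower than its 2 d value (log2 ratio -1.17). It was the only one of the 4 loci with at least 1 FPKM at either time to pass the limit in that comparison, in which 9.78% of 20442 entries were past it downward and 4.57% upward.

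A lower entry naming SAMS1 has the same coordinates. It had 36.9 FPKM at 2 d and 10.6 FPKM at 3 d, against 29.4 FPKM in control roots. Its log2 ratios to control were 0.33 at 2 d and -1.48 at 3 d, so that at 2 d it lay on the other side of 0 from the main entry. It held 2.18% of the summed FPKM of the locus at 2 d and 1.42% at 3 d, against 1.30% in control roots, and the sum over both entries (1690, 744 and 2268 FPKM for 2 d, 3 d and control) followed the main entry. The strand of the reads is not stated in the sources used here, so in the lower entry reads of SAMS1 and reads of an antisense or overlapping transcript cannot be told apart.

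OsACS6 is named as an ACC synthase, the enzyme of the step at which the pathway commits SAM to ethylene. Whether this locus encodes an active ACC synthase was not tested. It lies on chromosome 6 from 1629199 to 1633629. Its value was 11.6 FPKM at 2 d and 14.0 FPKM at 3 d, against 7.79 FPKM in control roots. The gene thus sat near the middle of the expressed entries, 50.4% of which were higher than it in control roots. Its WD values were 1.49-fold higher than control at 2 d (log2 ratio 0.58) and 1.80-fold higher at 3 d (log2 ratio 0.85). Both were within the limit of 2-fold, and 25.7% of all entries compared at 2 d and 23.6% at 3 d had a ratio as high or higher. Entries that name no gene lie 54 bp before and 453 bp after it. The entry before had 2.15 FPKM at 2 d and 1.66 FPKM at 3 d, against 0.974 FPKM in control roots, and the entry after had 19.1 and 21.1 FPKM, against 17.0 FPKM in control roots. Whether reads of OsACS6 were counted in either of them was not tested.

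OsACO5, named as an ACC oxidase, belongs to the enzymes of the last step, which release ethylene. It lies on chromosome 5 from 2825323 to 2826992. Its transcript was near the limit of what the tables list in WD roots: 0.0548 FPKM at 2 d and 0.10 FPKM at 3 d, against 7.98 FPKM in control roots. These values are 146-fold lower at 2 d (log2 ratio -7.19) and 79.5-fold lower at 3 d (log2 ratio -6.31). Of the entries with a ratio, 137 of 22412 (0.611%) had one as low or lower at 2 d, and 468 of 22312 (2.10%) at 3 d. Entries listed at 0 in WD roots have no ratio. With entries listed at 0 in 1 group and at least 1 FPKM in the other also counted, those as low as OsACO5 or listed at 0 in WD roots were 489 of 22942 (2.13%) at 2 d and 1126 of 23170 (4.86%) at 3 d. With 1 added to each FPKM, the log2 ratios were -3.09 and -3.03. The difference between the WD values rests on levels far under 1 FPKM and is not read here. The adjacent locus OsACO6 (LOC_Os05g05670), 3869 bp away and named as another ACC oxidase, was listed at 0 at 2 d and at 3 d, and had 2.38 FPKM in control roots. Reads shared between these neighbouring family members could have been assigned to either, and their values are uncertain to that extent.

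OsERS2, annotated as an ethylene receptor, belongs to the ERS type, whose members lack the receiver domain found in receptors of the ETR type. It lies on chromosome 5 from 3232962 to 3237443. Its level was 9.72 FPKM at 2 d and 9.38 FPKM at 3 d, against 26.0 FPKM in control roots. Both WD values were below the control value, being 2.68-fold lower at 2 d (log2 ratio -1.42) and 2.78-fold lower at 3 d (log2 ratio -1.47). Of the log2 difference at 3 d, 96.6% was present at 2 d. Among all entries compared, 19.2% at 2 d and 22.4% at 3 d had a ratio as low or lower, so a difference of this size was common in these roots.

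OsEBF2, listed in the study's tables as the F-box protein OsFBL7 with leucine-rich repeats, is named after the Arabidopsis EIN3-binding F-box proteins, which limit the amount of EIN3 and whose own genes are targets of the ethylene response in that species. It lies on chromosome 2 from 5628039 to 5631315. Its level was 67.7 FPKM at 2 d and 55.3 FPKM at 3 d, against 243 FPKM in control roots. In control roots 200 of 21244 entries (0.941%) were higher. The WD levels were 3.59-fold lower at 2 d (log2 ratio -1.85) and 4.40-fold lower at 3 d (log2 ratio -2.14), with 86.4% of the 3 d difference present at 2 d. Ratios as low or lower were found in 15.0% of all entries compared at 2 d and in 16.6% at 3 d.

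**Figure D2:**
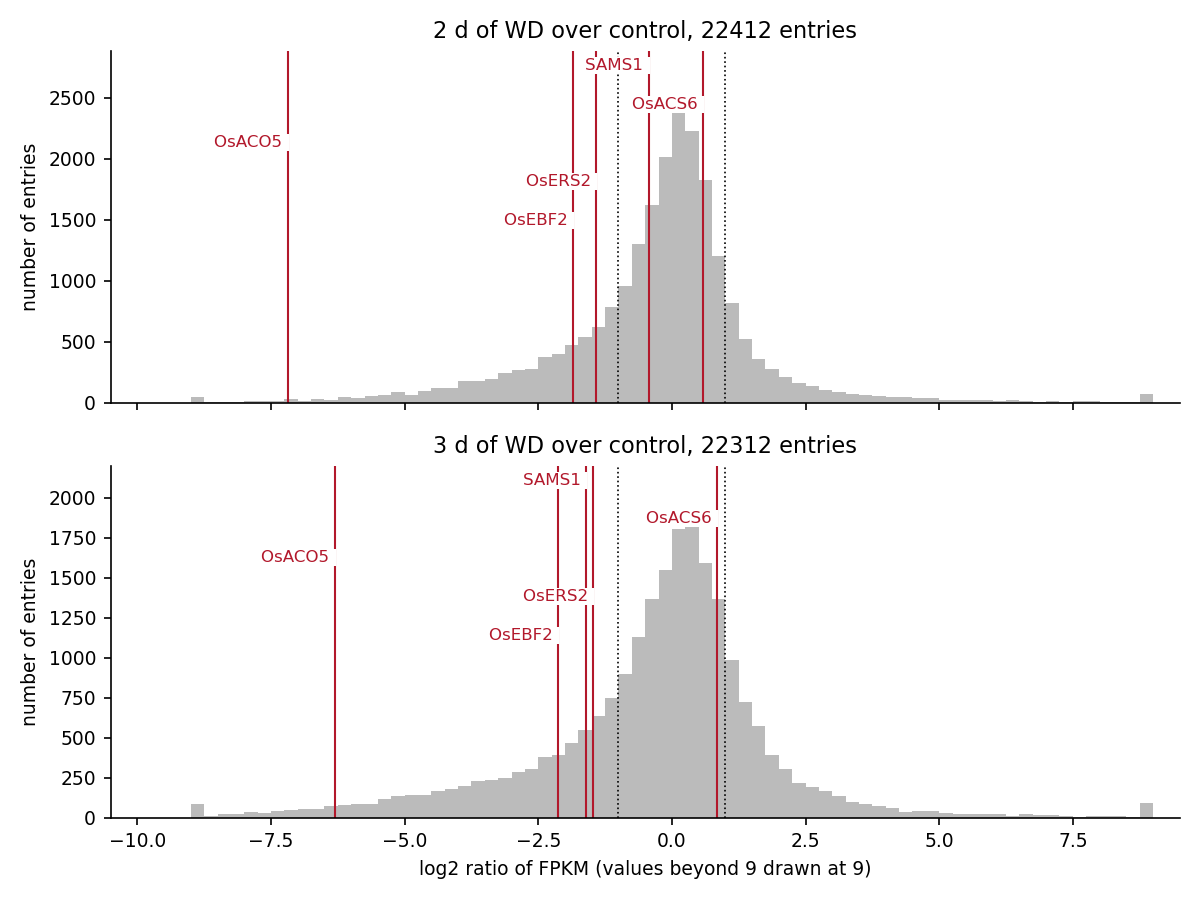
Number of entries (vertical axes) by log2 ratio of FPKM (horizontal axis) for 2 d of WD over control (upper panel, 22412 entries) and 3 d of WD over control (lower panel, 22312 entries), with a line for the main entry of each ethylene locus and dotted lines at the 2-fold limit. OsACO5 stands in the far lower tail at -7.19 and -6.31, OsACS6 lies inside the limit at 0.58 and 0.85, and SAMS1 is inside it at -0.44 in the upper panel and past it at -1.61 in the lower.

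In these pooled values, the loci thus had unlike shares of their 3 d difference present at 2 d. Whether their timing differs was not tested. OsERS2 and OsEBF2 had most of their difference at 2 d and log2 ratios of -0.05 and -0.29 for 3 d over 2 d. OsACS6 had 67.9% of its difference at 2 d and a log2 ratio of 0.27 for 3 d over 2 d. SAMS1 had the smaller part of its difference at 2 d. Ordered by level, SAMS1 was the highest of the loci in every group, OsEBF2 came next in every group, and OsERS2 came before OsACO5 and OsACS6 in control roots. At 2 d and 3 d the order below OsEBF2 was OsACS6, OsERS2 and OsACO5. FPKM accounts for transcript length, but without a spread between libraries it cannot be said whether the neighbours OsACS6 and OsERS2, at 11.6 and 9.72 FPKM at 2 d, differed, nor OsACO5 and OsACS6, at 7.98 and 7.79 FPKM in control roots.

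To place these loci in their pathway, a list of 32 loci of ethylene synthesis and signalling was examined, 5 of which are the loci above. In the deposited tables, 1 position was placed on each of the 12 chromosomes, sought so that more entries after it share their locus name with another entry. By chromosome, the share of expressed named entries that did so was 2.65% to 22.9% before the position and 37.8% to 45.6% after it. Expressed entries without a name made up 7.40% before these positions and 23.8% after them. On chromosome 5, for example, 3.72% of expressed named entries shared their name before position 7446336 and 41.2% after it. All 5 loci described above lie before these positions, as do 5 others of the list, whereas 22 lie after them, where a name may be attached to a neighbouring stretch. Within 250 kb of SAMS1, OsACO5, OsERS2 and OsEBF2, 0 expressed entries were without a name, and 7 of 53 were so around OsACS6.

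Before these positions, MHZ3 (LOC_Os06g02480), which in rice stabilises the signal transducer OsEIN2, had 3.24 FPKM at 2 d and 3.80 FPKM at 3 d, against 4.25 FPKM in control roots. Its log2 ratios of -0.39 and -0.16 were within the limit. The entry that includes LOC_Os03g06620, named as a dioxygenase of the cycle that recovers methionine from the by-product of ACC synthesis, had 134 and 161 FPKM, against 67.8 FPKM in control roots. It was within the limit at 2 d (log2 ratio 0.98) and past it at 3 d (1.24), and it also names another locus. The ACC synthase loci OsACS4 (LOC_Os05g10780) and OsACS5 (LOC_Os01g09700) stayed under 1 FPKM in every group, the highest value being the 0.249 FPKM of OsACS5 in control roots. With OsACO6 these are all the loci of the list on that side. MHZ3, OsACO6, OsACS4 and OsACS5 are given for that reason, outside the rule for named genes.

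Over the whole list, 15 loci could be compared with control at each time. At 2 d, 2 were past the limit upward and 7 downward, against 15.0% and 24.6% of all entries compared. At 3 d, 4 were past it upward and 6 downward, against 20.1% and 28.3% of all entries. OsACO6, listed at 0 in WD roots, has no ratio and is in none of these counts, and the other 16 loci were under 1 FPKM in both groups at each time. Of the 15 loci compared, 5 are those described above and supply 3 of the 7 lower values at 2 d and 4 of the 6 at 3 d. The other lower values, 4 at 2 d and 2 at 3 d, came from the 8 compared loci after the positions where shared names become frequent. So did 2 of the 2 higher values at 2 d and 3 of the 4 at 3 d. Of the 2 further loci compared before these positions, 0 were past the limit downward at either time.

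After these positions, 8 of 22 loci reached 1 FPKM in a group and 7 were listed at 0 in every group. Their values are given by name as deposited. Among the loci of synthesis, OsACS1 (LOC_Os03g51740), an ACC synthase, had 17.8 FPKM at 2 d and 9.53 FPKM at 3 d, against 37.2 FPKM in control roots (log2 ratios -1.07 and -1.97). OsETOL1 (LOC_Os03g18360), related to an Arabidopsis protein that directs ACC synthases to breakdown, had 18.5 and 26.4 FPKM, against 6.59 FPKM in control roots (1.49 and 2.00). The ACC oxidases OsACO3 (LOC_Os02g53180) and OsACO7 (LOC_Os01g39860) were on the upper side, unlike OsACO5. OsACO3 had 26.5 and 33.2 FPKM, against 14.0 FPKM in control roots (0.93 and 1.25), and OsACO7 had 1.93 and 3.26 FPKM, against 0.768 FPKM in control roots (1.33 and 2.08).

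Among the loci of perception and signalling, the receptor OsERS1 (LOC_Os03g49500) had 24.9 and 35.0 FPKM, against 18.8 FPKM in control roots. Its log2 ratios of 0.40 and 0.89 lay above 0 where those of OsERS2 lay below. This entry also names another locus, and the lower entry that names OsERS1 alone had 17.7 and 25.1 FPKM, against 12.9 FPKM in control roots (0.46 and 0.96). OsCTR2 (LOC_Os02g32610), a kinase of the type that acts next to the receptors, had 4.83 and 9.80 FPKM, against 10.7 FPKM in control roots, and was past the limit at 2 d only (-1.14 and -0.12). The transcription factors OsEIL1 (LOC_Os03g20790) and OsEIL2 (LOC_Os07g48630) are of the EIN3 type that EBF proteins act on. OsEIL1, in an entry that also names another locus, had 2.64 and 1.5 FPKM, against 7.71 FPKM in control roots (-1.55 and -2.36). OsEIL2 had 6.96 and 10.7 FPKM, against 14.0 FPKM in control roots (-1.005 and -0.38), and at 2 d it was just past the limit.

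**Figure D3:**
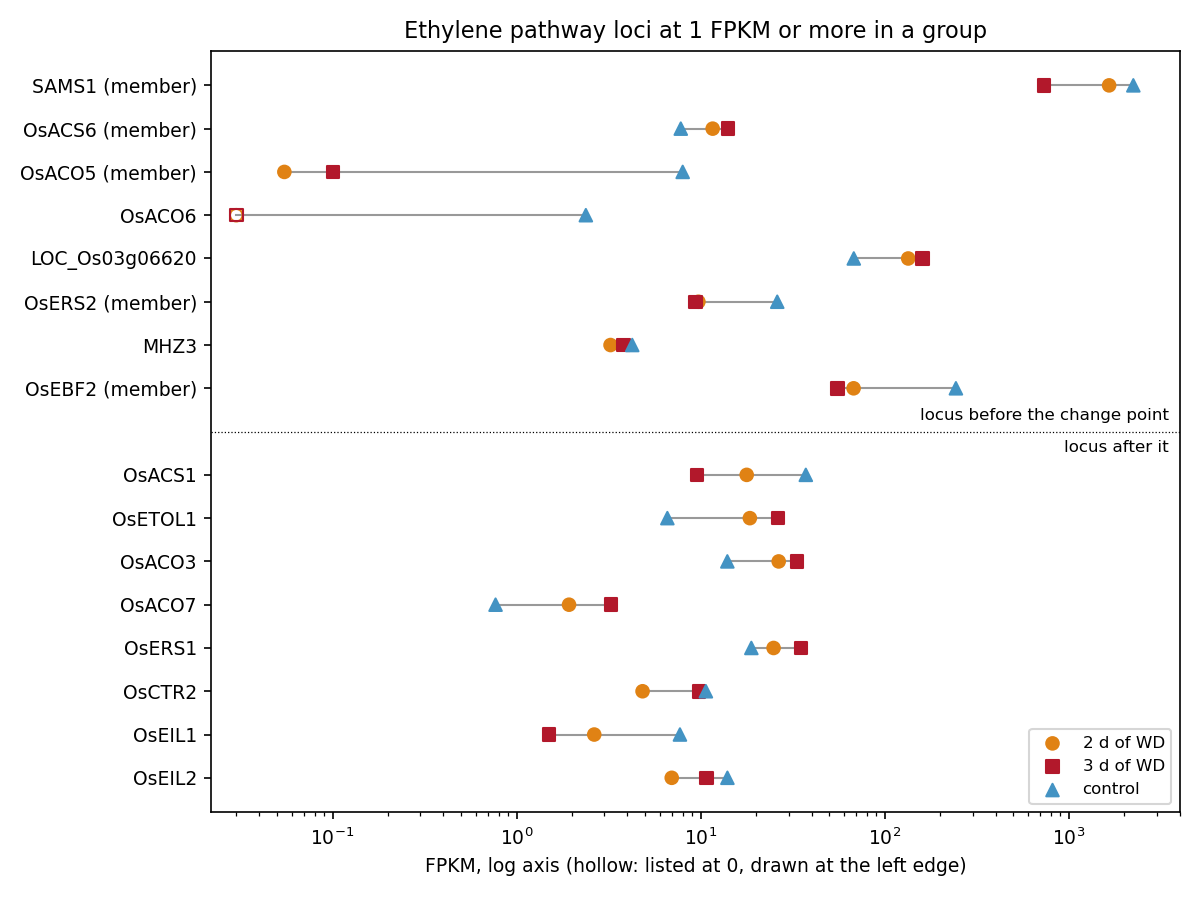
FPKM (horizontal log axis) of the 16 loci of the ethylene pathway list that reached 1 FPKM in a group, after 2 d of WD (circles), 3 d of WD (squares) and in control roots (triangles), ordered by step within the loci before and after the position where shared names become frequent. SAMS1 lies farthest right, the WD points of OsACO5 lie at 0.0548 and 0.10, and hollow points mark values listed at 0, as for OsACO6 in both WD groups.

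For each of the 5 loci, the most alike locus of the list was taken as that with the smallest Euclidean distance between the pairs of log2 ratios at 2 d and 3 d, among 14 candidates and over only 3 pooled values. OsACS6 was nearest to OsERS1, at a distance of 0.18. OsEBF2 was nearest to OsEIL1, at 0.37. OsERS2 and SAMS1 were both nearest to OsACS1, at 0.61 and 0.72. OsERS1, OsEIL1 and OsACS1 all lie after the positions where shared names become frequent, so a name may be attached to a neighbouring stretch. The entries used for OsERS1 and OsEIL1 also name another locus. These likenesses therefore hold for the names as deposited only. For OsACO5 the nearest candidate was OsEBF2, at a distance of 6.78. OsACO6 was no candidate, since its values of 0 in WD roots give no ratio, although it too was above 1 FPKM in control roots and under 1 FPKM at both times.

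Nearby entries were examined next. Within 50 kb of the main entry of SAMS1 lay 9 entries with at least 1 FPKM in a group, its lower entry included. Of these, 6 were past the limit downward at 2 d and 7 at 3 d, beside 24.6% and 28.3% of all entries compared. The lowest, LOC_Os05g04440, had 0.0524 FPKM at 2 d and 0.0517 FPKM at 3 d, against 38.5 FPKM in control roots. LOC_Os05g04500, annotated in the study as a peroxidase precursor and 6272 bp away, had 8.04 and 0.548 FPKM, against 45.2 FPKM in control roots. SAMS1 thus lies beside a group of 5 entries, LOC_Os05g04440 to LOC_Os05g04500, that were past the limit downward at both times. These 5 entries had 0.0484 to 0.548 FPKM at 3 d. They passed the filter of 1 FPKM in that comparison only through their control values. At 2 d the same held for LOC_Os05g04440, LOC_Os05g04450, LOC_Os05g04470 and LOC_Os05g04490, at 0.0524 to 0.156 FPKM. The size of their ratios rests on low levels. Neither it nor the counts around SAMS1 are read here as a result. Around OsERS2, 0 of 9 entries were past the limit downward at either time and the medians were -0.12 and -0.23. Around OsEBF2, 2 of 7 entries were past it downward at both times, with medians of -0.28 and -0.62. Around OsACO5, 2 of the 9 entries with a ratio were, with medians of -0.27 and -0.09, and the other, OsACO6, was listed at 0 at both times. The shares around OsEBF2 and OsACO5 were near those of all entries. Around OsACS6, 1 of 12 was past it downward at both times, with medians of -0.00 and 0.23.

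**Figure D4:**
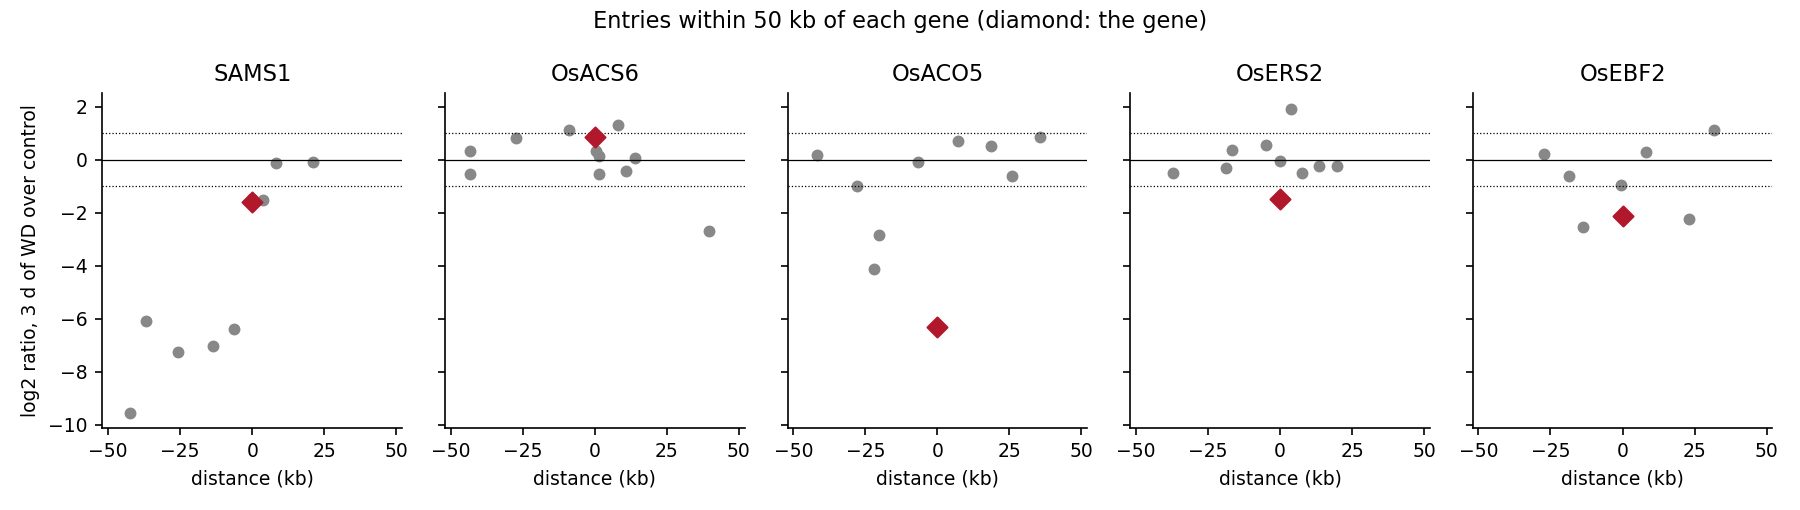
Log2 ratio of FPKM at 3 d of WD over control (vertical axis) of entries with at least 1 FPKM within 50 kb of each ethylene locus, by distance in kb (horizontal axis), with the locus itself as a diamond and dotted lines at the 2-fold limit. The 5 entries on the left of SAMS1 lie between -9.54 and -6.09 and were all under 1 FPKM at 3 d. Around OsERS2, 0 entries lie below the lower dotted line, and OsACO5 lies below all of its neighbours that have a ratio.

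Some properties of the whole data bear on these values. The 2 highest entries, of 91 and 48 bp, held 76.6% of the summed FPKM in control roots, 73.9% at 2 d and 69.0% at 3 d. Rescaling to equal sums without them shifted the log2 ratios of the 5 loci by at most 0.194. It put OsACS6 at 0.65 at 3 d. Among entries under 0.08 FPKM in both groups, the commonest ratio to control was 1.10 at 2 d and 1.19 at 3 d. It was held by 131 of 2201 such entries (5.95%) at 2 d and by 99 of 1938 (5.11%) at 3 d. With so small a share, the worth of 1 fragment in each group is not settled, and the total depth is unknown. Of the entries with at least 1 FPKM in control roots, 352 of 21244 (1.66%) were listed at 0 at 2 d and 658 (3.10%) at 3 d. Of 8 marker loci for root and green leaf tissue, only the root silicon exporter Lsi2 (LOC_Os03g01700) lies where names are seldom shared. Lsi2 had 7.18 FPKM at 2 d and 1.85 FPKM at 3 d, against 921 FPKM in control roots. The root marker RCc3 (LOC_Os02g44310) had 8.29 and 8.83 FPKM, against 6.92 FPKM in control roots, Lsi1 was listed at 0 in every group, and the 5 green leaf loci had at most 9.96 FPKM in any group. Lsi2, the only root marker where names are seldom shared, was thus far lower in WD roots, and the part of this in the lower values of the ethylene loci was not tested. In these bulk roots, fewer cells of a type and less RNA per cell cannot be told apart. For its drought markers, the paper reports increased expression by qRT-PCR in roots at the later times of stress. Of these markers, OsDREB2b (LOC_Os05g27930) had 48.6 and 56.2 FPKM, against 37.4 FPKM in control roots. Its log2 ratios of 0.38 and 0.59 were within the limit, and its entry also names another locus. OsbZIP23 (LOC_Os02g52780) had 0.704 and 0.947 FPKM, against 1.25 FPKM in control roots. Its log2 ratios of -0.83 and -0.40 were below 0 and within the limit. Both loci lie where names are often shared, and why OsbZIP23 was lower in these values was not tested.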

How the data were processed

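Per the study's methods, the authors checked paired-end reads with FastQC, trimmed them at quality 20 with cutadapt and Trim Galore, used TopHat for mapping to the IRGSP 1.0 genome with the gene features of RGAP, and ran Cuffdiff. Not given in the sources used here were tool versions, the strand setting and how libraries were scaled. The deposited values are FPKM, 1 per entry and group, pooled by the authors over 2 libraries. The tables also hold the authors' fold changes, test statistics, p-values and q-values, which were not used. Both tables gave the same control FPKM in all 63985 entries.

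FPKM ratios were computed with Python 3.11.15, pandas 2.3.3 and numpy 2.4.6, and drawn with matplotlib 3.10.9. Entries with at least 1 FPKM in 1 of the groups compared were kept, with no pseudocount, and a log2 ratio over 1 or under -1 was called. A value of 0 gave no ratio. The design allowed for limma on values per library. The tables held pooled values only, so depth is unknown and no interval or test is given. Groups came from the sample labels. Start positions were converted to count from 1. The change in name sharing was placed at 1 position per chromosome, with at least 30 entries on each side, and the scripts were tested on simulated data.

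Named genes were all 5 loci, each pathway locus past the limit at either time, the highest locus of each role and the nearest locus to each of the 5. The loci, the pathway list, and the marker lists were chosen with earlier results of these data known. Of 32 list symbols, 14 were found in a RefSeq table of another assembly, used for names only, and all 14 were on the chromosome of the locus name. Alternatives covered added constants, scaling, filters, limits, summed entries and the entries used.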

Additional observations from a re-analysis of the deposited data

Results flagged for a closer look

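The lower of the entries naming SAMS1 (LOC_Os05g04510) lay above control at 2 d of WD, with a log2 ratio of 0.33, and below it at 3 d, with a log2 ratio of -1.48. It was picked out because its directions at the times are opposite. The difference between the times was not tested, since each group has 1 pooled value.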

How the results depend on the processing

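All 87 recomputed log2 ratios of the 5 loci, under added constants, both scalings and summed entries, lay on the same side of the 2-fold limit as reported and 0 changed direction. The largest shift was 4.10, for OsACO5 at 2 d with 1 added. Counts past the limit depended on the threshold. With over 10 FPKM in both groups, only SAMS1 and OsEBF2 could be compared. Of these 2 loci, 1 was lower at 2 d (reported 3 of 5) and 2 at 3 d (reported 4 of 5). With a log2 limit of 2, 1 was lower at 2 d, 2 at 3 d and 0 for 3 d over 2 d (reported 1). With a 1.5-fold limit, 1 was higher at 3 d (reported 0). Pathway loci higher at 2 d (reported 2) were 1 with 1 added, 4 without a filter, 1 over 4 FPKM, 0 over 10 FPKM, 0 at a log2 limit of 2, 4 at 1.5-fold and 0 among loci before the name positions. Those lower at 2 d (reported 7) were 2 over 10 FPKM, 1 at a log2 limit of 2 and 3 before the positions. At 3 d, those higher (reported 4) were 2, 2 and 1 under these settings, and those lower (reported 6) were 2 over 10 FPKM and 3 at a log2 limit of 2. The share of all entries past the limit at 2 d (reported 39.6%) was 22.2% over 4 FPKM, 18.9% over 10 FPKM and 19.9% at a log2 limit of 2, and at 3 d (reported 48.3%) it was 29.4%, 26.6% and 25.6%. For 3 d over 2 d (reported 14.3%) it was 7.04% with 1 added, 21.7% without a filter, 5.74% over 4 FPKM, 4.63% over 10 FPKM, 3.60% at a log2 limit of 2 and 32.2% at 1.5-fold. Fewer loci are compared under the FPKM limits, which OsACO5 cannot pass, and OsACS6 and OsERS2 cannot pass the limit of 10 FPKM. No paired analysis was possible because the columns carry no value per library, and for the same reason limma, the replicate block and leaving out libraries were not run.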
